A study of Mus musculus with 4 samples.

Results

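The genes described here mark hepatocytes of the portal zone of the liver lobule (Cyp2f2, Hal, Sds, Gls2 and Aldh1b1) or encode the enzymes of the urea cycle (Cps1, Otc, Ass1, Asl and Arg1). The members were fixed by symbol, and every probe set annotated to 1 of these 10 symbols was taken. That gave 10 probe sets for 8 genes, out of 45037 probe sets and 18193 genes tested. Sds and Gls2 are not analysed here. A further probe set, 1416239_at, is annotated both to Ass1 and to the pseudogene Gm5424. It is described under both names and enters none of the counts.

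Whole-liver RNA came from 2 groups of C57BL/6 mice. Baf60a LKO mice have a liver-specific knockout of Baf60a (Smarcd1), whose product belongs to the SWI/SNF complex that moves nucleosomes, and the other group was wild type (WT). Both groups ate a high-fat diet for 10 weeks from 6 weeks of age, and livers were taken after an overnight fast. There were 2 arrays per group, and no pool of RNA was used for more than 1 of them. A replicate is thus a pool of mice, of a size not given in the sources used here, and p-values measure the spread between pools. The Cre driver, the mice's sex and the cells in which Baf60a was deleted are likewise not given in the sources used here. The comparison asks how the livers' transcripts differ between Baf60a LKO and WT mice.

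All values are log2 levels as deposited, and differences are Baf60a LKO minus WT on that scale, with standard errors from limma. Smarcd1 stood at 5.34 and 5.30 in Baf60a LKO livers, against 5.62 and 5.88 in WT livers (-0.43 ± 0.14, limma adjusted p = 0.410), and whether its probe set lies in the deleted part is not known. The Smarcd1 difference was -0.28 with its probe sets averaged and -0.30 without WT replicate 2. The array of WT replicate 1 stood apart, with correlations of 0.987 to 0.991 with the others, against 0.993 to 0.996 for the other pairs (across probe sets, which are not independent replicates). The hepatocyte markers Alb, Apoa1, Ttr and Apob lay between 11.77 and 14.17 on all 4 arrays, far above 27 bacterial control probe sets, whose 95th percentile was 2.63 to 2.86. The other measured marker, Tat, of tyrosine breakdown, stood at 10.77 and 11.07 in Baf60a LKO livers, against 11.28 and 11.23 in WT livers. Its groups did not overlap, and it did not pass (-0.34 ± 0.14, limma adjusted p = 0.510, and -0.19 without Baf60a LKO replicate 1).

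Blood enters the liver lobule at the portal vein and leaves at the central vein, and hepatocytes along that path express different genes. Portal hepatocytes take up much of the ammonia and amino acids arriving from the gut and carry out most urea synthesis, while glutamine synthetase in the cells around the central vein captures the ammonia that remains. In the urea cycle, Cps1 makes carbamoyl phosphate in mitochondria, Otc joins it to ornithine, Ass1 and Asl build and split argininosuccinate in the cytosol, and Arg1 releases urea from arginine. Among the portal markers, Cyp2f2 is a cytochrome P450 of xenobiotic oxidation, Hal opens histidine breakdown, and Aldh1b1 is a mitochondrial aldehyde dehydrogenase.

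RefSeq promoter sequences were at hand for 5 of the members, and those of the 3 measured portal markers are shown so that the marker that fell can be read beside the other 2. Each is the 250 bases before the annotated start, plus strand, GRCm38.p6. Capitals mark matches, on either strand, to the cAMP response element half-site TGACG, the C/EBP pattern TTGCNNAA or the TATA box TATAAA, motifs of factors known for fasting-responsive and hepatocyte genes and of the core promoter.
Cyp2f2, chr7:27119705-27119954: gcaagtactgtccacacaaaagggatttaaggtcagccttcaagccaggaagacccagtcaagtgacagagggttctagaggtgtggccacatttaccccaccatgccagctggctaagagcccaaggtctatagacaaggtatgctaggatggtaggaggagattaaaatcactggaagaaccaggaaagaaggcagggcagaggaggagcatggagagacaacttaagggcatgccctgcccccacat
Hal, chr10:93488518-93488767: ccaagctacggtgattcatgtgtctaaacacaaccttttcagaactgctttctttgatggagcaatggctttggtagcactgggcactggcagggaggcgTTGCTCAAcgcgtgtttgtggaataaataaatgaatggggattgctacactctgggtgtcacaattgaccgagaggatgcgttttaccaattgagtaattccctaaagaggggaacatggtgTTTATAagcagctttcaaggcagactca
Aldh1b1, chr4:45798772-45799021: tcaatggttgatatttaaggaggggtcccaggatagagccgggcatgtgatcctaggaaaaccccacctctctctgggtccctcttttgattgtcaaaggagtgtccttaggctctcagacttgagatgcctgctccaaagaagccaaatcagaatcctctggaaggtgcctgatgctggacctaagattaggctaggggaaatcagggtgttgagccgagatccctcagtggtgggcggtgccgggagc
The Hal window held 1 C/EBP match and 1 TATA match, which do not overlap, and the Cyp2f2 and Aldh1b1 windows held 0 of either. None of the 3 held the TGACG half-site. Of 32851 promoter windows of 250 bases, 17.8% held TGACG, 9.56% the C/EBP pattern and 12.4% the TATA box. Those windows were not cut at a gene's outermost annotated start, a rule applied only to the members. The GC content was 51.6% for Cyp2f2, 45.6% for Hal and 53.2% for Aldh1b1.

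Cyp2f2 fell in Baf60a LKO livers, and no other measured member passed the test. Cyp2f2 stood at 10.50 and 10.19 in Baf60a LKO livers, against 12.21 and 12.12 in WT livers. The groups did not overlap, and the gap between them was several times the distance between pools of either group (0.31 in Baf60a LKO and 0.09 in WT). The difference was -1.82 ± 0.15, a 3.53-fold fall with a 95% interval of 2.73-fold to 4.57-fold (limma, adjusted p = 0.0181 over 18193 genes). In the fit over 45037 probe sets the adjusted p was 0.0293. Among all genes, 33 had a larger fall, and 0.253% had a larger absolute difference. In whole-liver RNA, fewer portal hepatocytes and less Cyp2f2 RNA per cell cannot be told apart. The difference kept its size with any 1 array left out, but not its call. It was -1.98 without Baf60a LKO replicate 1 (limma, adjusted p = 0.154), -1.66 without Baf60a LKO replicate 2 (0.213), -1.78 without WT replicate 1 (0.216) and -1.87 without WT replicate 2 (0.114).

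**Figure D1:**
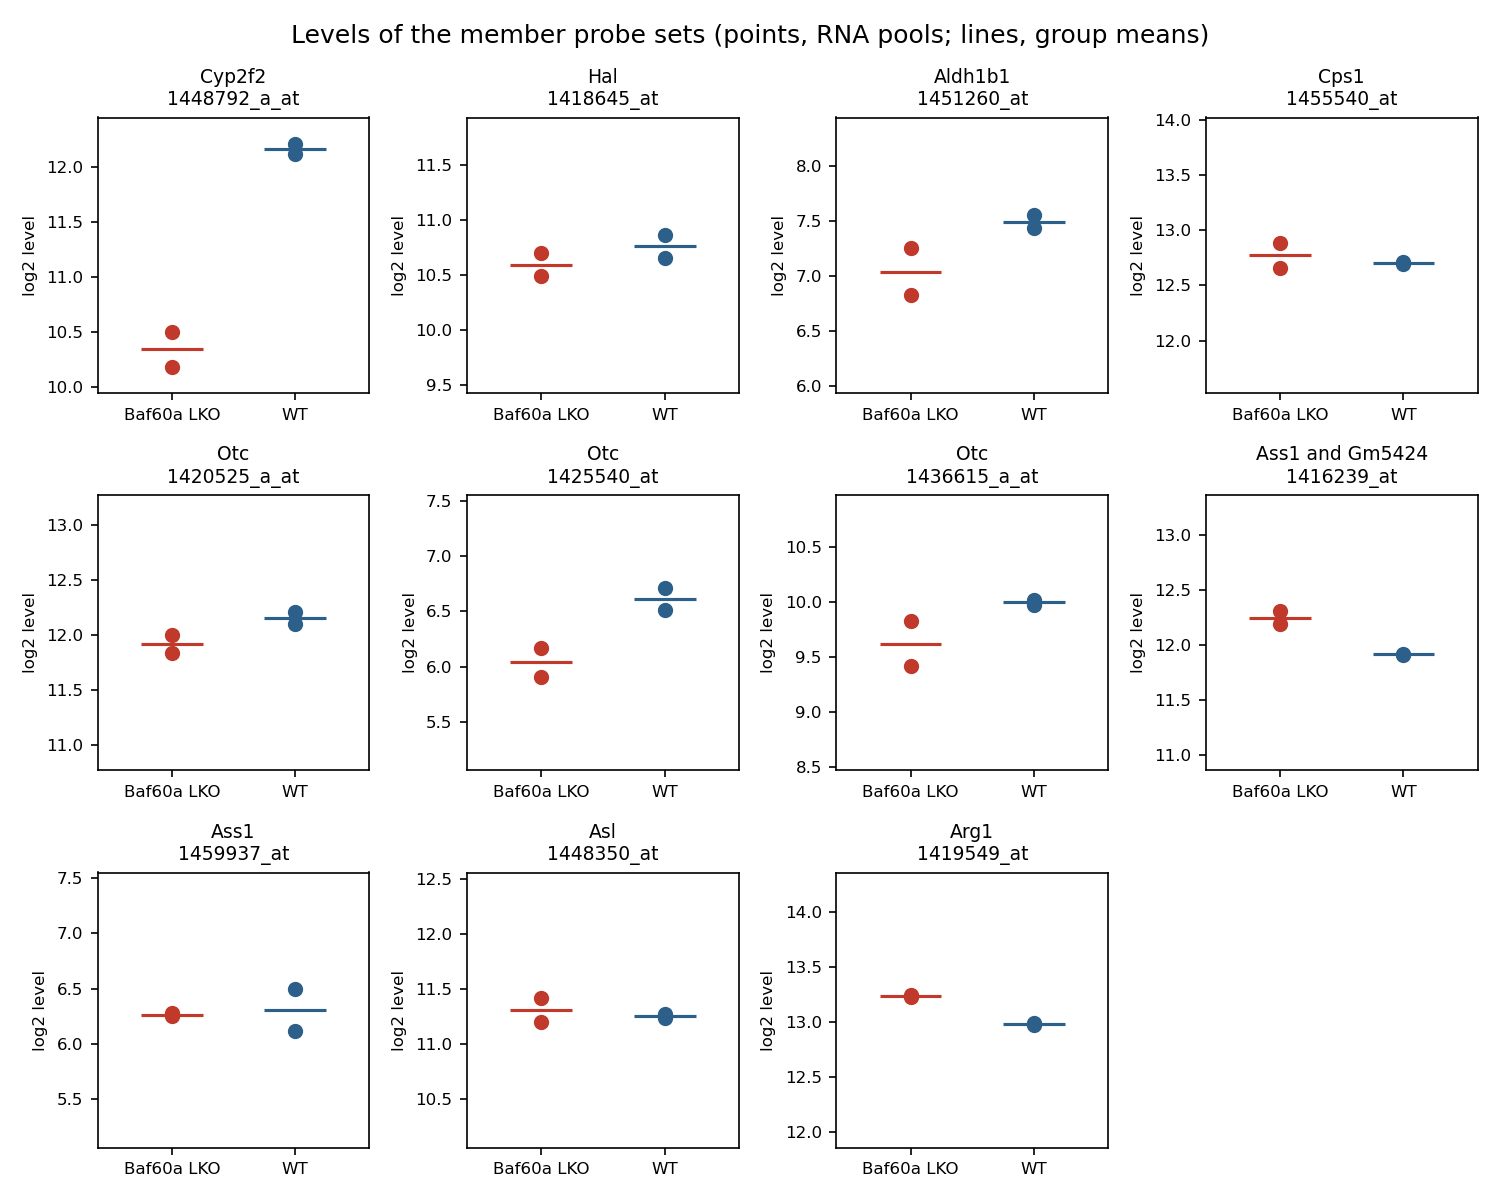
Log2 level of each member probe set, and of the probe set shared by Ass1 and Gm5424, in Baf60a LKO and WT livers. Points are RNA pools, lines are group means, and each panel spans the same range of log2 units. Cyp2f2 shows the widest separation, with Baf60a LKO pools at 10.50 and 10.19 and WT pools at 12.21 and 12.12.

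The other 2 measured portal markers were lower in Baf60a LKO livers by less, and neither passed. Aldh1b1 stood at 6.83 and 7.25 in Baf60a LKO livers, against 7.44 and 7.56 in WT livers. Both Baf60a LKO pools lay below both WT pools, though the Baf60a LKO pools lay 0.43 apart. The difference was -0.46 ± 0.17 (limma, adjusted p = 0.477), and leaving out Baf60a LKO replicate 1 or 2 gave -0.24 or -0.67. Hal stood at 10.70 and 10.49 in Baf60a LKO livers, against 10.87 and 10.65 in WT livers. The groups overlapped, with a distance between pools of 0.20 in Baf60a LKO and 0.21 in WT. The difference was -0.17 ± 0.14 (limma, adjusted p = 0.705), and it was -0.06 without WT replicate 1 and -0.27 without WT replicate 2. The median difference of the 3 portal markers, which is the value of Aldh1b1, was -0.46, beside a median of 0 over all genes. Over the brighter 50% of genes, by mean level, the median was 0.08.

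Of the 5 urea cycle genes, none passed, with 3 higher and 2 lower in Baf60a LKO livers. Their median difference was 0.05, beside 0.08 over the brighter 50% of genes. Ass1 enters this count and median only by its dimmer probe set 1459937_at, at 6.11 to 6.49 over the arrays. The brighter probe set shared with Gm5424, at 11.91 to 12.31, differed by 0.33 and is not counted. Cps1, the entry step, stood at 12.66 and 12.89 in Baf60a LKO livers, against 12.70 and 12.71 in WT livers. The WT pools lay between the Baf60a LKO pools. The difference was 0.07 ± 0.13, with a 95% interval of -0.26 to 0.40 (limma, adjusted p = 0.871), and it turned to -0.047 without Baf60a LKO replicate 2.

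Otc was read by 3 probe sets, all lower in Baf60a LKO livers without passing. On the brightest, 1420525_a_at, it stood at 11.84 and 12.00 in Baf60a LKO livers, against 12.10 and 12.21 in WT livers. On 1436615_a_at it stood at 9.42 and 9.82 in Baf60a LKO livers, against 9.97 and 10.02 in WT livers. On 1425540_at it stood at 5.90 and 6.17 in Baf60a LKO livers, against 6.51 and 6.71 in WT livers. On each of them both Baf60a LKO pools lay below both WT pools. In the fit over probe sets the differences were -0.23 ± 0.13 for 1420525_a_at (limma, adjusted p = 0.661), -0.37 ± 0.17 for 1436615_a_at (0.629) and -0.58 ± 0.15 for 1425540_at (0.486). The 3 probe sets read the same 4 RNA pools, so they are not separate evidence. With the 3 averaged, the difference of Otc was -0.39 (limma over genes, adjusted p = 0.432). On the brightest probe set it was -0.15 without Baf60a LKO replicate 1.

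The probe set annotated to Ass1 alone, 1459937_at, stood at 6.25 and 6.28 in Baf60a LKO livers, against 6.11 and 6.49 in WT livers. Both Baf60a LKO pools lay between the WT pools, which were 0.38 apart. The difference was -0.04 ± 0.16 (limma, adjusted p = 0.949), and it turned to 0.15 without WT replicate 2. The probe set shared by Ass1 and Gm5424 stood at 12.19 and 12.31 in Baf60a LKO livers, against 11.91 and 11.92 in WT livers. There both Baf60a LKO pools lay above both WT pools. The difference was 0.33 ± 0.12, with a 95% interval of 0.02 to 0.64 before adjustment (limma over probe sets, adjusted p = 0.595). Which of its 2 genes this signal comes from cannot be told from the annotation.

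Asl stood at 11.20 and 11.42 in Baf60a LKO livers, against 11.27 and 11.24 in WT livers. The groups overlapped, and the difference of 0.05 ± 0.13 (limma, adjusted p = 0.906) turned to -0.055 without Baf60a LKO replicate 2. Arg1 stood at 13.22 and 13.24 in Baf60a LKO livers, against 12.97 and 12.99 in WT livers. Its pools lay 0.02 apart in each group, and both Baf60a LKO pools lay above both WT pools. The difference was 0.26 ± 0.11, or 1.19-fold (limma, adjusted p = 0.514), and it was 0.25 to 0.27 with any 1 array left out.

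Arg1 is also made by some macrophages and, in some species, by red cells. Of 7 macrophage markers 3 were higher and 4 lower in Baf60a LKO livers, none passed, and none was near background. All 7 had overlapping groups, as did 10483 of all 18193 genes. Their summed level was 12.63 and 12.48 in Baf60a LKO livers, against 12.45 and 12.64 in WT livers. Of 4 erythroid markers 2 had a value of their own. Alas2, of heme synthesis, stood at 9.43 and 9.37 in Baf60a LKO livers, against 9.29 and 9.29 in WT livers, while the Hba-a1 probe set was near background at 2.61 to 2.70. The part of macrophages or red cells in the Arg1 difference was not tested.

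For each of the 5 urea cycle genes, the brightest probe set annotated to it alone was taken first. There the limma 95% intervals before adjustment reached as far as a 1.46-fold fall (Otc) and a 1.45-fold rise (Arg1). On other probe sets they reached further, to a 1.73-fold fall on 1436615_a_at and a 1.94-fold fall on 1425540_at for Otc, and to a 1.56-fold rise on the probe set shared by Ass1 and Gm5424. For Hal the interval ran from a 1.44-fold fall to a 1.14-fold rise, and for Aldh1b1 from a 1.86-fold to a 1.01-fold fall.

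**Figure D2:**
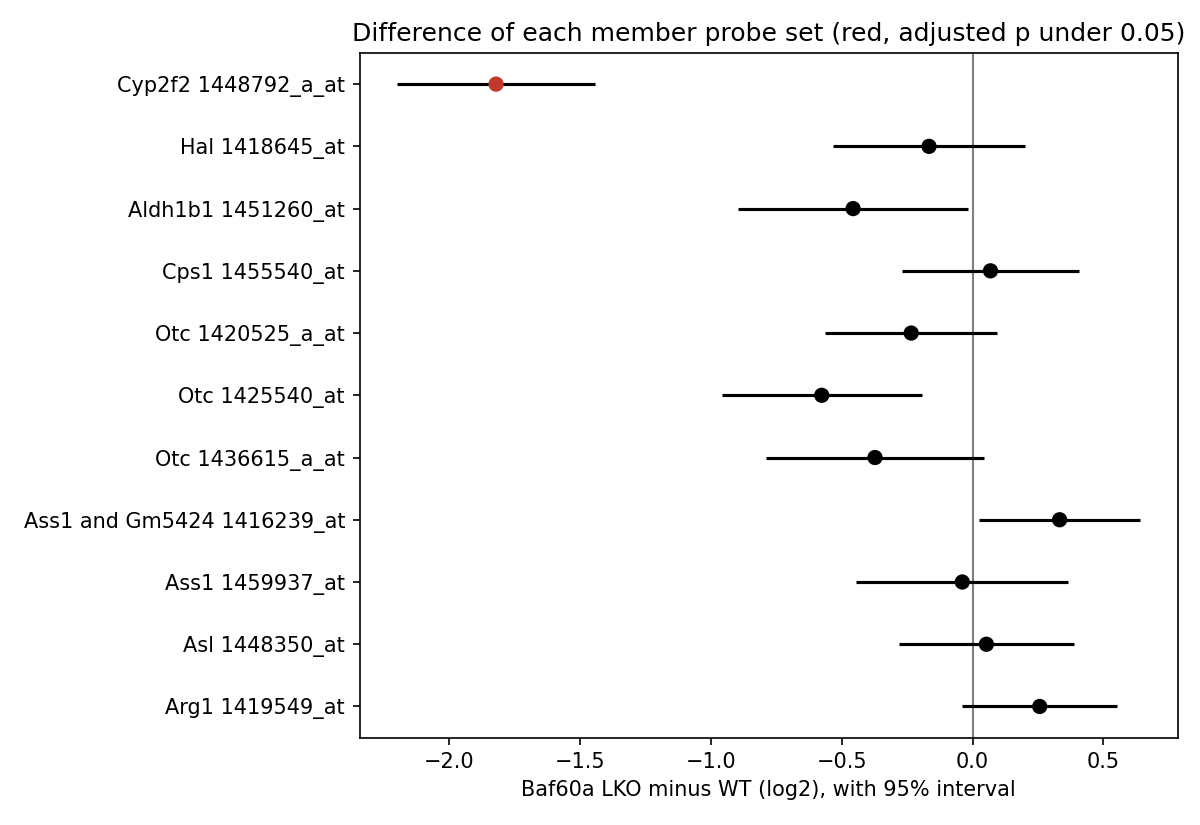
Difference between Baf60a LKO and WT (log2) for each member probe set and for the probe set shared by Ass1 and Gm5424, with the limma 95% interval before adjustment. The point for Cyp2f2 at -1.82 is the 1 with an adjusted p under 0.05 over all probe sets, and the 3 Otc probe sets lie at -0.23 to -0.58.

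Counted over genes, 0 of the 8 measured members rose, 1 fell and 7 did not pass, beside 0.247% of all genes that fell and 0.236% that rose. Counted over probe sets, 0 of 10 rose, 1 fell and 9 did not pass, beside 0.12% of all probe sets that fell and 0.0666% that rose. Both Baf60a LKO pools lay below both WT pools for 3 members (Cyp2f2, Aldh1b1 and Otc) and above them for Arg1, beside 19.6% and 22.8% of all genes. Counted over probe sets, 5 of 10 lay below (Cyp2f2, Aldh1b1 and the 3 of Otc) and 1 above, beside 19.4% and 19.7% of all probe sets. With 2 pools against 2, an exact permutation test of a single value cannot give a p below 0.333, so calls rest on the spread that limma shares across genes. The median over the 7 members other than Cyp2f2 was -0.04, which is the value of Ass1 on its dimmer probe set. With 1 probe set per gene, their differences ran from -0.46 to 0.26.

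**Figure D3:**
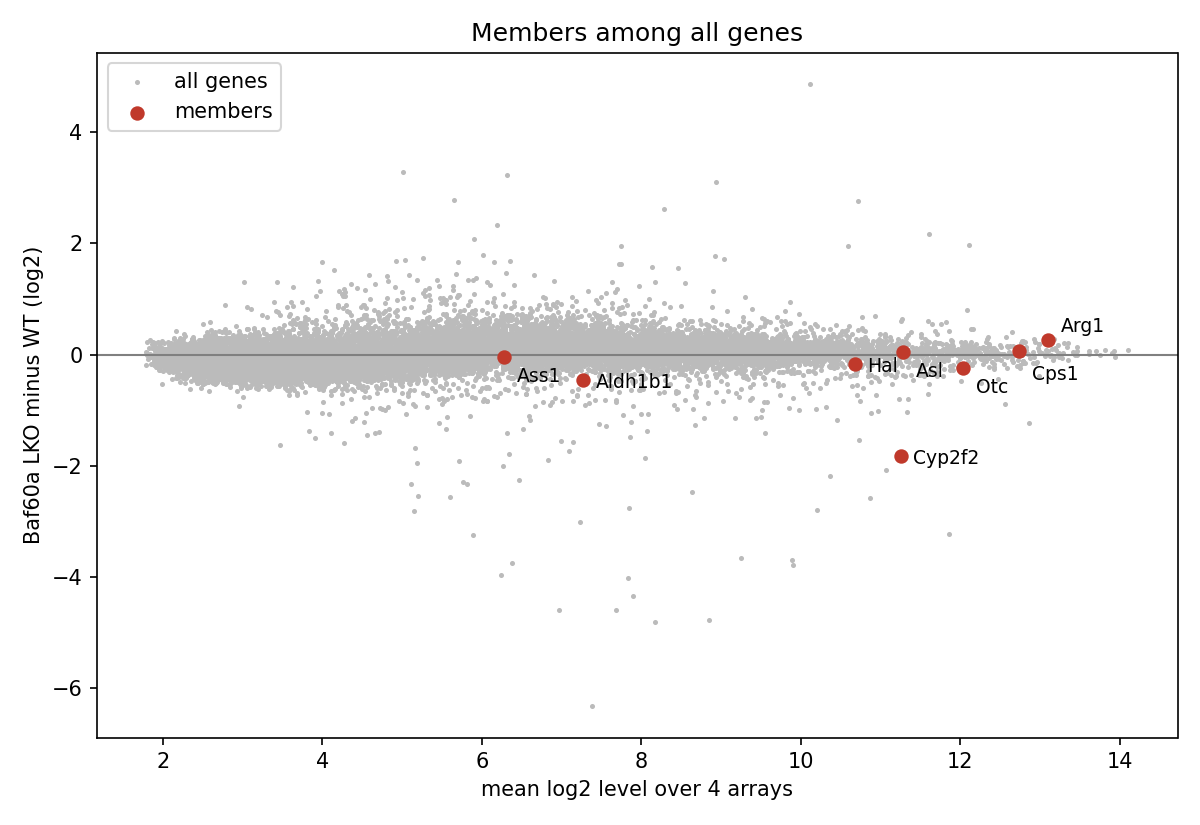
Difference between Baf60a LKO and WT (log2) against the mean log2 level over the 4 arrays, for all 18193 genes (grey) and the 8 measured members (red). Cyp2f2 lies at -1.82, away from the grey band, while the other members lie between -0.46 and 0.26.

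**Figure D4:**
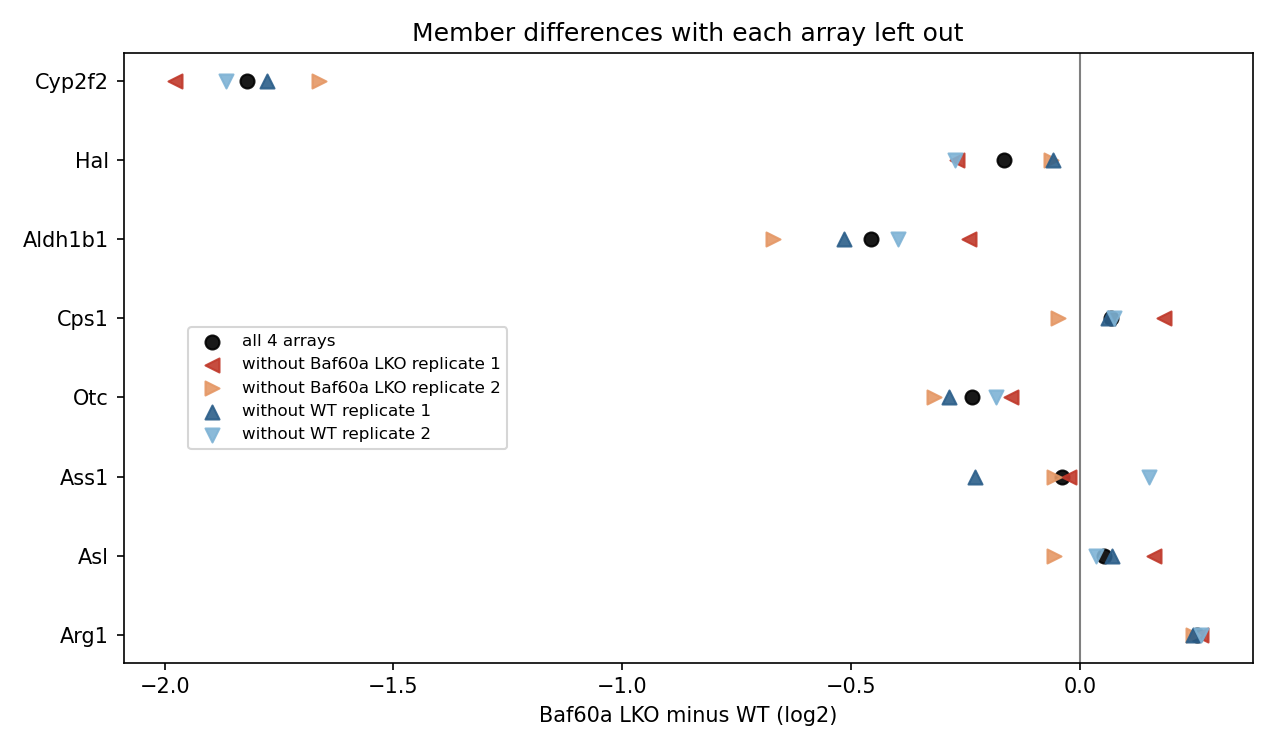
Difference between Baf60a LKO and WT (log2) of each member with all 4 arrays (circles) and with each array left out (triangles). Cyp2f2 stays between -1.98 and -1.66, Arg1 stays between 0.25 and 0.27, and Cps1, Ass1 and Asl lie on both sides of 0.

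Genes listed with the supply of the urea cycle did not pass either. The 11 were carriers and enzymes that supply nitrogen, bicarbonate, ornithine and aspartate, amino acid transporters, and Aqp9. Of them 8 were higher and 3 lower, with a median of 0.12, beside 0.08 over the brighter 50% of all genes. Nags, whose product N-acetylglutamate activates Cps1, stood at 8.13 and 8.06 in Baf60a LKO livers, against 8.41 and 8.38 in WT livers (-0.29 ± 0.11, limma adjusted p = 0.486). The mitochondrial aspartate-glutamate carrier Slc25a13 differed by 0.27 ± 0.14 and its paralog Slc25a12 by 0.52 ± 0.17 (limma, adjusted p = 0.560 and 0.411). For Slc25a12 the 3 probe sets disagreed, and with them averaged the difference was 0.22. The difference of Slc25a13 was 0.14 without Baf60a LKO replicate 1. The amino acid transporter Slc38a4 differed by 0.18 ± 0.13, by 0.091 without WT replicate 1 and by 0.33 with its probe sets averaged.

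Of 26 genes of amino acid breakdown 23 had a value of their own, 13 higher and 10 lower, with a median of 0.01, and none passed. The largest difference was that of Uroc1, urocanase, which acts directly after Hal in histidine breakdown. On its brighter probe set Uroc1 stood at 11.19 and 11.28 in Baf60a LKO livers, against 11.95 on both WT arrays (-0.71 ± 0.12, limma adjusted p = 0.123). On the other probe set it stood at 8.24 and 8.39 in Baf60a LKO livers, against 9.55 and 9.32 in WT livers (-1.12 ± 0.14 in the fit over probe sets). Both probe sets thus showed Baf60a LKO pools below WT pools, and with the probe sets averaged Uroc1 passed (-0.92, limma adjusted p = 0.0424), as it did with a trended and robust eBayes (-0.71, 0.00354), while the adjusted p over its other alternatives reached 1. The next enzymes of that pathway, Amdhd1 and Ftcd, differed by 0.19 ± 0.12 and 0.21 ± 0.12 and were chosen after their values were seen. With its probe sets averaged Amdhd1 differed by 0.38. Prodh, the first enzyme of proline breakdown, differed by -0.51 ± 0.14, Hpd, of tyrosine breakdown, by -0.39 ± 0.11, and Cbs, of homocysteine removal, by 0.53 ± 0.14 (limma, adjusted p = 0.333, 0.364 and 0.327). Of these, Hpd passed with a trended and robust eBayes (0.0176).

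Among 10 other genes of the portal zone, 1 rose, 0 fell and 9 did not pass, with a median of 0.06. Cdh1, the adhesion protein E-cadherin, stood at 7.42 and 7.31 in Baf60a LKO livers, against 5.81 and 6.07 in WT livers, so the groups did not overlap. It rose by 1.42 ± 0.14 (limma, adjusted p = 0.0293), with adjusted p = 0.0475 over probe sets. Leaving out 1 array gave Cdh1 differences of 1.29 to 1.55 and ended the call each time. The adjusted p was 0.416 without Baf60a LKO replicate 1, 0.354 without Baf60a LKO replicate 2, 0.192 without WT replicate 1 and 0.114 without WT replicate 2. Cdh1 is also expressed by the epithelium of bile ducts, and 4 of 4 measured cholangiocyte markers were higher in Baf60a LKO livers without passing. Their summed level was 6.76 and 7.14 in Baf60a LKO livers, against 6.12 and 6.36 in WT livers. Of these, Epcam stood at 5.71 and 6.02 in Baf60a LKO livers, against 4.44 and 4.95 in WT livers, but its other probe set differed by -0.36. The summed level holds only the first of these Epcam probe sets. Krt7 was near background, at 3.41 and 4.02 in Baf60a LKO livers, against 3.31 and 3.22 in WT livers. Krt19 was dim, at 4.05 and 4.21 in Baf60a LKO livers, against 3.66 and 3.81 in WT livers. Sox9 stood at 4.87 and 5.36 in Baf60a LKO livers, against 4.66 and 4.80 in WT livers. The part of bile duct cells in the Cdh1 difference was not tested. Pigr, the immunoglobulin receptor of bile secretion, differed by -0.52 ± 0.13 (limma, adjusted p = 0.280). It passed only with a trended and robust eBayes (0.0263). The apolipoprotein gene Apoa4 differed by -0.32 ± 0.14, and by -0.21 without Baf60a LKO replicate 1. Pck1, of gluconeogenesis, differed by 0.31 ± 0.13, by 0.20 without WT replicate 1 and by 0.49 with its probe sets averaged.

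Of 12 genes of the central zone, none passed, with 4 higher and 8 lower and a median of -0.25. For 7 of them both Baf60a LKO pools lay below both WT pools, and for 2 above, beside 19.6% and 22.8% of all genes. Lgr5, a receptor of WNT signalling, differed by -0.80 ± 0.17 (limma, adjusted p = 0.205), and its other probe set by -0.04. Cyp1a2, a cytochrome P450, differed by -0.47 ± 0.12 (limma, adjusted p = 0.316) and passed only with a trended and robust eBayes (0.0387). Gulo, of ascorbate synthesis, differed by -0.40 ± 0.12 and Lect2, a secreted hepatokine, by -0.37 ± 0.13. Glul, the gene of glutamine synthetase, differed by -0.35 ± 0.13 without overlap of the groups (limma, adjusted p = 0.455). Whether the portal and central lists differ from each other was not tested.

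**Figure D5:**
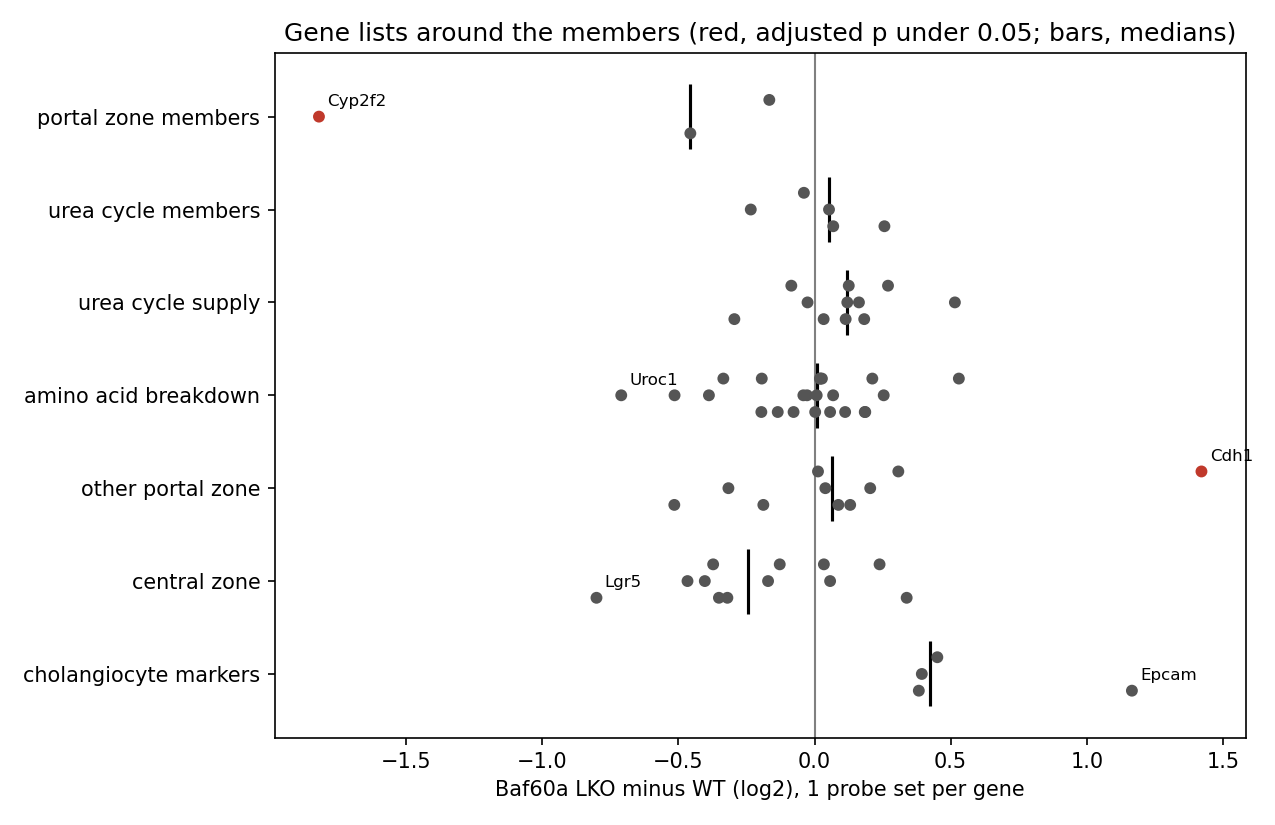
Difference between Baf60a LKO and WT (log2) of each gene in the 2 member lists and 5 lists around them, 1 probe set per gene, with the list medians as vertical bars. Cyp2f2 at -1.82 and Cdh1 at 1.42 are the genes with an adjusted p under 0.05, and the urea cycle genes lie between -0.23 and 0.26.

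The 5 genes whose values were most like those of Cyp2f2 over the 4 arrays, by Euclidean distance after centring each gene on its mean, were Tpm2, Cyp4a12a, Gpcpd1, Cyp7b1 and Cyp4a14. They were taken from 3697 other genes with a mean level of at least 8, and their distances were 0.44 to 0.63 log2 units. Tpm2 encodes a tropomyosin, Gpcpd1 a glycerophosphocholine phosphodiesterase, and the others are cytochrome P450 genes of fatty acid or oxysterol hydroxylation. Tpm2, the nearest, stood at 6.97 and 7.26 in Baf60a LKO livers, against 8.93 and 9.003 in WT livers. The likeness was chosen on the same 4 arrays as the differences and is a description.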

How the data were processed

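The authors deposited 1 log2 value per probe set and array (Affymetrix Mouse Genome 430 2.0 arrays, per the labels). The submitters' processing notes name RMA, affy and limma without versions. RMA corrects background, normalizes by quantiles and compresses differences of dim probe sets. Of 45101 probe sets, 64 controls were left out. The platform annotation gave 1 symbol to 34945 probe sets and several to 932, and did not list 9160. Symbols were updated by Entrez number through RefSeq (GRCm38.p6, 34741 matched), used for names and promoters only, since no build is given in the sources used here. A gene was represented by the probe set of highest mean among those annotated to it alone.

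Groups came from the labels. limma 3.58.1 in R 4.3.3 (lmFit, eBayes) was run over genes and over probe sets, 2-sided, with Benjamini-Hochberg adjustment over each whole table and a threshold of 0.05 (2 residual and 3.54 prior degrees of freedom). The scripts were tested on simulated data. The summed level of a list is log2 of the sum of linear values. The number of arrays limits the precision. No filter on level was applied. The genes named are all members and, of each other list, those past the threshold and up to 4 with the largest differences. Amdhd1, Ftcd and Glul were added after their values were seen. Cell type markers are given as counts and summed levels, and the measured hepatocyte markers and a few others by name. Members and lists were chosen with earlier results of these data known. Alternatives were other normalizations, brighter probe sets, averaged or fewer probe sets, another eBayes, a replicate block, other thresholds and each array left out. Figures were drawn with matplotlib 3.10.9.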

Additional observations from a re-analysis of the deposited data

How the results depend on the processing

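Of the 96 comparisons of a member gene under another setting, 88 kept direction and side of the threshold, 5 lost the call of Cyp2f2 and 3 turned the sign of Cps1 (-0.047 without Baf60a LKO replicate 2), Asl (-0.055 without Baf60a LKO replicate 2) or Ass1 (0.15 without WT replicate 2), none of them called. With 1 array left out, Cps1 ran from -0.047 to 0.18, Asl from -0.055 to 0.16 and Ass1 from -0.23 to 0.15. Member genes past the threshold numbered 1, and 0 with a replicate block, at a threshold of 0.01 and with any 1 array left out, and the same held for member probe sets. The difference of Cyp2f2 ran from -1.98 to -1.66 with 1 array left out. Leaving out an array leaves a group of 1 pool, assumed to vary like the other group, and 1 residual degree of freedom fewer. The labels give no pairing of replicate numbers between groups. The correlation of same-numbered deviations across genes was 0.14, but 2 pairs cannot show whether same-numbered pools share a batch. With a replicate block Cyp2f2 stayed at -1.82 with limma adjusted p = 0.0623, while Cdh1 had 0.126. In the fit over probe sets, the adjusted p of Cyp2f2 was 0.124 with the block and 0.166 to 0.542 with 1 array left out. The median of the portal markers was -0.67 to -0.27 with 1 array left out, and that of the urea cycle genes -0.055 to 0.16.

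By limma, 88 genes passed (43 higher, 45 lower), 142 after cyclic loess, 154 with array medians subtracted (91 higher, 63 lower), 216 with a trended and robust eBayes, 19 with a replicate block and 10 at a threshold of 0.01, and 0 to 17 with 1 array left out (0 without WT replicate 1, where 1630 had an unadjusted p under 0.05). Of probe sets, 84 passed, 139 after a further quantile normalization, 162 after cyclic loess, 146 with medians subtracted, 173 with a trended and robust eBayes, 4 with a replicate block, 18 at a threshold of 0.01 and 143 at 0.1. With 1 array left out, 0 passed. Over all alternatives of the fit over genes, the limma adjusted p ran from 0.000607 to 0.216 for Cyp2f2, 0.0079 to 0.416 for Cdh1, 0.00354 to 1 for Uroc1, 0.0176 to 1 for Hpd, 0.0263 to 1 for Pigr and 0.0387 to 1 for Cyp1a2. The value of Hnf4a turned to 0.36 without _x_at and _s_at probe sets. The cause of these changes was not tested beyond the fewer arrays or degrees of freedom named.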

Other observations

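Regulators of the urea cycle and amino acid genes did not pass. Of 11, 10 had a value of their own, 6 higher and 4 lower in Baf60a LKO livers, with a median of 0.06. Cebpb, a C/EBP factor of fasting and acute phase responses, stood at 10.91 and 10.99 in Baf60a LKO livers, against 11.34 and 11.28 in WT livers (-0.36 ± 0.12, limma adjusted p = 0.413). Creb1, the cAMP-responsive factor, differed by 0.36 ± 0.19, and by 0.10 without WT replicate 1. Ppargc1a, a coactivator of the fasting response, differed by 0.31 ± 0.16, and by 0.14 without WT replicate 1. Hnf4a, a hepatocyte transcription factor, differed by -0.19 ± 0.11 on its brightest probe set, by -0.069 with its probe sets averaged and by 0.36 once those ending in _x_at or _s_at were left out.

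Of 8 genes on side branches of arginine and glutamine use, 7 had a value of their own and none passed, 4 higher and 3 lower, with a median of 0.06. Gamt, of creatine synthesis, stood at 9.64 and 9.78 in Baf60a LKO livers, against 10.02 and 10.06 in WT livers (-0.33 ± 0.12, limma adjusted p = 0.465). Odc1, of polyamine synthesis, stood at 8.80 and 8.71 in Baf60a LKO livers, against 8.54 and 8.46 in WT livers (0.26 ± 0.12, limma adjusted p = 0.526). The inducible nitric oxide synthase Nos2 was dim, at 3.57 and 4.19 in Baf60a LKO livers, against 4.53 and 4.05 in WT livers. It differed by -0.41 ± 0.26 with overlapping groups, and by -0.10 without Baf60a LKO replicate 1. Gatm, the other creatine synthesis gene, differed by 0.15 ± 0.14, and by 0.0049 without WT replicate 1.

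Markers of other liver cells stood as follows, and none passed. All 5 endothelial markers were lower, with a median of -0.10 and a summed level of 10.80 and 10.64 in Baf60a LKO livers, against 10.81 and 10.87 in WT livers. All 5 stellate markers were lower, with a median of -0.02 and a summed level of 11.66 and 11.62 in Baf60a LKO livers, against 11.66 and 11.72 in WT livers. The groups overlapped for 3 of the endothelial and 4 of the stellate markers. Of all 18193 genes, 9070 were lower and 10483 had overlapping groups. The 5 measured hepatocyte markers had a median of -0.04 and a summed level of 15.72 and 15.73 in Baf60a LKO livers, against 15.69 and 15.71 in WT livers.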
